A study of Mus musculus with 3 samples.

Results

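A stretch of chromatin can hold 1 site of a bound factor or a row of sites close together, and the rows are described here for the leukaemia fusion protein NUP98-HOXD13. Every interval called in the DMSO pull-down on chromosomes 1 to 19, X and Y was placed by its summit. Consecutive summits on a chromosome that lay 50 kb or less apart were joined, and the members are all intervals of chains with 2 or more summits. The rule used the positions of the DMSO summits alone. It gave 256 members in 93 chains, out of 613 DMSO intervals, or 41.8%, and left 357 isolated intervals.

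The cells were a mouse leukaemia line carrying NUP98-HOXD13, cultured with the cytokines IL-3, IL-6 and SCF, and all samples share the line and the biotinylated fusion. They received DMSO, the solvent, or 2 µM VTP50469, which blocks the contact between menin and the methyltransferase MLL, and were taken at 96 h. In BioChIP-seq the biotinylated protein and its crosslinked DNA are pulled down on streptavidin beads, without an antibody to the fusion. The series has 3 samples, namely 1 DMSO pull-down, 1 VTP50469 pull-down and 1 DMSO input, and the input was not used here as a file. With 1 library per treatment there was no replicate check, so no difference below was tested across samples. Nothing in the labels says whether the line is 1 clone or what drives the fusion.

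This fusion works as a transcription factor. In this fusion the N-terminal part of the nucleoporin NUP98, rich in phenylalanine-glycine repeats, is joined to the homeodomain of HOXD13, a transcription factor of the posterior body and limbs. NUP98 fusions cause acute leukaemias in which HOXA genes and their partners stay active, and NUP98 fusion proteins are known to associate with MLL complexes, to which menin belongs. HOX homeodomains contact short AT-rich sites, and PBX and MEIS proteins bind DNA beside them.

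Values for an interval are the authors' own. The fold is the enrichment of the library over a background at the summit, as the peak caller gave it, and strength is the −log10 q, where q is the p-value corrected for the number of places examined. Folds from the DMSO and VTP50469 lists are given side by side without a comparison, because each belongs to its own list. A member is called shared when at least 1 bp of it overlaps an interval of the VTP50469 list. For the 6 members that overlapped 2 or more, the VTP50469 fold is that of the interval with the highest −log10 q. Shares carry exact Clopper-Pearson 95% intervals, which cover counting error only, since neighbouring intervals are not independent.

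Where members lay on a listed start, their DNA can be shown. A gene can have several listed starts, some inside its span. Of 256 members, 5 overlapped the window around a listed start of a protein-coding gene, or 1.95% (0.637 to 4.50%), which is near the 1.79% of all 613 DMSO intervals that did so. These 5 were at Hoxa3, Hoxb8, Dennd1b, Mbnl1 and Casp4, and each of the 5 was shared. Of all 613 DMSO intervals 49.8% were shared, and with 5 members no difference from that was tested. A further member covered the start of the long non-coding RNA gene Gm29905 in the Hoxc chain. It also covered the edge of the Hoxc6 span, where no coding start is listed, so it is not among the 5. The sequences below are the bases before the start that lay inside the member, from RefSeq on GRCm38.p6, printed on the gene's strand to show what the most gene-proximal members cover. Capitals mark AATAAA or its reverse complement TTTATT, the core letters that posterior HOX homeodomains such as that of HOXD13 prefer.
Hoxb8 (chr11:96281655-96281904, plus strand, 250 bases): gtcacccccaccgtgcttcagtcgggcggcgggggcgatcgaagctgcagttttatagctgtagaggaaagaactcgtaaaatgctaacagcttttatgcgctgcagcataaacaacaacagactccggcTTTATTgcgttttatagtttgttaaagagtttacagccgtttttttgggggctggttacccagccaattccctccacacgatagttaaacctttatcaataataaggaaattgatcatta
Gm29905 (chr15:102998168-102998354, minus strand, 187 bases): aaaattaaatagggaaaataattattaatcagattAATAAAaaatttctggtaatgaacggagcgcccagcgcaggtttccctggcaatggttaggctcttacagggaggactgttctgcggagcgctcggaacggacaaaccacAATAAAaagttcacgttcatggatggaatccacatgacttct
Dennd1b (chr1:138967471-138967720, plus strand, 250 bases): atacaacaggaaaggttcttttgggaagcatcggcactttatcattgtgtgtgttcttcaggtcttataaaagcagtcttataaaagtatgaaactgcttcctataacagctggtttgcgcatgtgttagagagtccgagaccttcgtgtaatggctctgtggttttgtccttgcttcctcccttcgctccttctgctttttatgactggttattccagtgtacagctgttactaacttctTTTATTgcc
Mbnl1 (chr3:60472647-60472829, plus strand, 183 bases): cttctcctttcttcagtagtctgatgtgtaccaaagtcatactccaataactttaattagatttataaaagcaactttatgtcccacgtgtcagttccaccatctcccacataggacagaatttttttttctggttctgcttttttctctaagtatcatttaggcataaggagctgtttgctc
Hoxa3 (chr6:52213210-52213317, minus strand, 108 bases): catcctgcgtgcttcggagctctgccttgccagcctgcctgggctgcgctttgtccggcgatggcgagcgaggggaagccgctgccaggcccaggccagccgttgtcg

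The Hoxb8 and Dennd1b stretches held the motif at 1 place each and the Gm29905 stretch at 2, and the stretches of Mbnl1, Hoxa3 and Casp4 did not hold these letters. Over all 21263 listed windows of protein-coding genes, 15.3% held AATAAA on either strand in the 250 bases before the start. In the slice of the same length and place the share was 10.5% for Gm29905. The letters TGACAG of MEIS-type sites were searched on both strands too and were in none of these stretches. A match is a description of the letters and not a bound site.

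Chains were short rows. Of the 93, 54 had 2 members, 22 had 3, 10 had 4, 2 had 5, 4 had 6 and 1 had 8, so 148 members lay in the 39 chains of 3 or more. Chains were found on 20 of the chromosomes, and chromosome 1 held more than any other, with 11 chains and 29 members. Chains spanned a median of 9308 bp from first to last summit, from 578 bp in Cdc42bpa to 51386 bp on chromosome 8, and 49 of the 93 spanned 10 kb or less.

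Inside chains the summits lay far closer than the limit of 50 kb. The median distance between consecutive members was 3451 bp (quartiles 1564 and 9886 bp), over 163 distances. Of these, 53 were 2 kb or less, or 32.5% (25.4 to 40.3%), and 100 were 5 kb or less, or 61.3% (53.4 to 68.9%). The median over all 592 consecutive distances in the DMSO list was 1241541 bp. Distances inside chains are limited to 50 kb by the rule, so that contrast is by construction. The limit did not fall in an empty stretch, since 21 distances lay from 25 to 50 kb and 23 from 50 to 100 kb. Just inside it were pairs at Tex14 (49072 bp, folds 9.59 and 5.43), between Ahi1 and Myb (47503 bp, folds 12.0 and 6.89) and in Mctp1 (46445 bp, folds 9.89 and 6.24). Just outside it were 2 pairs on chromosome 4, at 50534 bp (folds 9.57 and 7.50) and 50587 bp (folds 2.90 and 7.72).

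**Figure D1:**
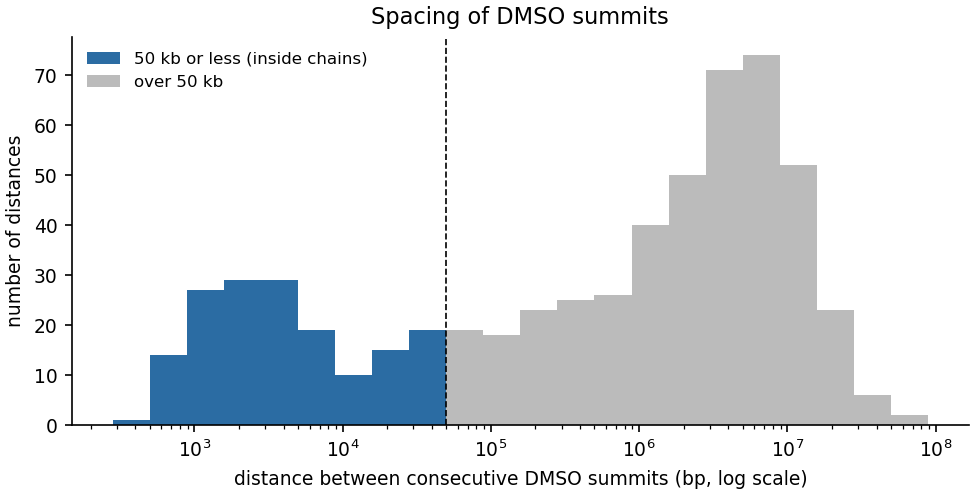
Distances between consecutive DMSO summits on a chromosome (x axis, bp, log scale) and their number (y axis), in blue for the 163 distances of 50 kb or less that lie inside chains and in grey for longer ones. The dashed line is the limit of 50 kb, and the blue distances have a median of 3451 bp.

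Members were stronger and wider than isolated intervals within the same list. Their median fold was 8.47 (95% interval of the median 7.79 to 9.09, n = 256), against 7.19 (6.89 to 7.63, n = 357) for isolated ones. The median −log10 q was 13.0 (11.1 to 14.6) against 8.83 (7.75 to 9.93), and the median width 392.5 bp (365 to 419 bp) against 328 bp (318 to 341 bp), and none of these intervals overlapped. When all 613 were divided into 4 equal bins by −log10 q, 80 members fell in the strongest bin, or 31.2% (25.6 to 37.3%), against 20.4% (16.4 to 25%) of isolated intervals. The highest fold of a member was 61.4, in Strbp, and the lowest 1.19, on chromosome 9.

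Taken as single intervals, members were found again with VTP50469 about as often as any others. Of 256 members 133 were shared, or 52.0% (45.6 to 58.2%), near the 49.8% of all DMSO intervals and the 48.2% (42.9 to 53.5%) of isolated ones. By chain size the shares were 54.6% (44.8 to 64.2%) in pairs, 56.1% (43.3 to 68.3%) in chains of 3 and 45.1% (34.1 to 56.5%) in chains of 4 or more. With the DMSO list held to its 400 strongest intervals, the length of the other list, and chains rebuilt, members were shared in 56.0% and isolated intervals in 62.8%, so the order turned.

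Counted as chains, 77 of 93 kept at least 1 member and 25 kept every member. The other 52 of these were shared in part, and 16 chains with 35 members had no VTP50469 interval. Of the 17 chains with 4 or more members, 16 were shared in part and 1 in full. That 1 was a row of 6 intervals on chromosome 9 with folds of 1.19 to 2.51, so among the 16 chains of 4 or more without an interval of fold under 3, none was shared in full. Of the 54 pairs 18 were shared in full, and of the 22 chains of 3 it was 6. A chain with more members needs more of them shared to count as full. A fall with size is thus expected by construction, and whether it went beyond that was not tested.

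**Figure D2:**
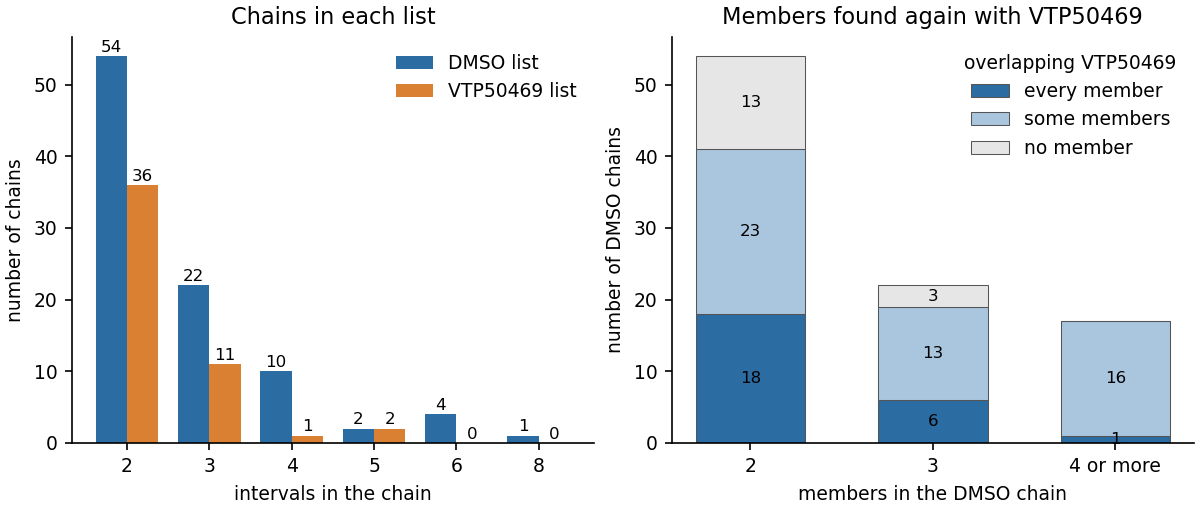
Left, the number of chains (y axis) by the number of intervals in them (x axis) in the DMSO list (blue) and, by the same rule, in the VTP50469 list (orange). Right, the 93 DMSO chains by size, divided by whether every member, some members or no member overlapped a VTP50469 interval, with 16 of the 17 chains of 4 or more shared in part. Larger chains are less easily shared in full or not at all, by construction.

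The same rule on the VTP50469 list of 400 intervals gave 50 chains with 119 intervals, 36 of them pairs, 11 of 3, 1 of 4 and 2 of 5. Of the 119 chained VTP50469 intervals 112 lay on a DMSO interval, or 94.1% (88.3 to 97.6%), against 199 of 281 isolated ones, or 70.8% (65.1 to 76.1%). Between the first and last base of the DMSO chains there were 137 VTP50469 intervals, and 0 of them lay off a member. No DMSO chain thus held a VTP50469 interval at a place without a DMSO interval. These extents begin and end on DMSO members, so that count does not describe VTP50469 rows elsewhere. Of the 50 VTP50469 chains, 42 had an interval on a chained DMSO interval, so not all were subsets of DMSO rows. Of the 119 chained VTP50469 intervals, 85.7% (78.1 to 91.5%) lay on a chained DMSO interval. Members covered 165769 bp and VTP50469 intervals in the extents of the DMSO chains 98407 bp. The chromosome 9 row of low folds alone gave 34247 bp of the first total and 34454 bp of the second. In 68 chains there were fewer VTP50469 than DMSO intervals, and in 25 as many or more. These counts start from chains chosen in the DMSO list, which favours DMSO intervals by construction.

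The member found again was mostly the strongest of its chain. Among the strongest members, 73 of 93 were shared, or 78.5% (68.8 to 86.3%), and among all other members 60 of 163, or 36.8% (29.4 to 44.7%). In the 52 chains shared in part, the strongest member was among those shared in 48, or 92.3% (81.5 to 97.9%). A single member was shared in 38 of the 52, and it was the strongest in 34 of these. The strongest members had a median fold of 11.2, and the others 7.31, so strength differed between these sets as well.

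Within bins of −log10 q, strongest and other members differed beyond counting error in the second bin. There (−log10 q from 6.09 to 10.2) 6 of 8 strongest members were shared, or 75% (34.9 to 96.8%), against 7 of 52 others, or 13.5% (5.59 to 25.8%). In the next bin (10.2 to 19.6) it was 18 of 27, or 66.7% (46.0 to 83.5%), against 16 of 46, or 34.8% (21.4 to 50.2%), and these intervals overlapped slightly. In the strongest bin the shares were 87.5% (75.9 to 94.8%) and 79.2% (57.8 to 92.9%), which their intervals do not separate. The weakest bin held 2 strongest members, both in the DMSO list alone. With bins and strongest members taken by fold, the strongest had the higher share in each of the 4 bins, but the second bin had the smallest gap. From weakest to strongest bin, 5 of 6, 2 of 6, 17 of 26 and 48 of 55 strongest members were shared, or 83.3% (35.9 to 99.6%), 33.3% (4.33 to 77.7%), 65.4% (44.3 to 82.8%) and 87.3% (75.5 to 94.7%). The others gave 50% (35.2 to 64.8%), 15.6% (6.49 to 29.5%), 32.6% (19.5 to 48.0%) and 62.5% (40.6 to 81.2%). All 4 pairs of intervals by fold overlapped, so the separation in the second bin depends on the measure of strength.

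Other members were also shared less often than isolated intervals of like strength in the second bin, but not in every bin. In that bin 41 of 93 isolated intervals were shared, or 44.1% (33.8 to 54.8%), above the 13.5% of other members, and the intervals did not overlap. In the next bin the isolated share was 52.5% (41.0 to 63.8%) against 34.8%, with overlapping intervals. In the weakest bin the order was the opposite, with 18 of 41 other members shared, or 43.9% (28.5 to 60.3%). Of the isolated intervals there 24 of 111 were shared, or 21.6% (14.4 to 30.4%), and these intervals overlapped slightly. In the strongest bin 79.2% of other members and 89.0% (79.5 to 95.1%) of isolated intervals were shared, with overlapping intervals. Of the 18 shared other members of the weakest bin, 11 lay in chains shared in full and 3 in the Mid1 chain. With summits inside gene spans alone, the second bin gave 14.6% (5.57 to 29.2%) of other members and 34.0% (21.5 to 48.3%) of isolated intervals, and these intervals overlapped. Without chains and isolated intervals of fold under 3 it gave 11.8% and 44.1%. With fold as the measure it gave 15.6% and 38.2% (28.8 to 48.4%), whose intervals overlap slightly.

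**Figure D3:**
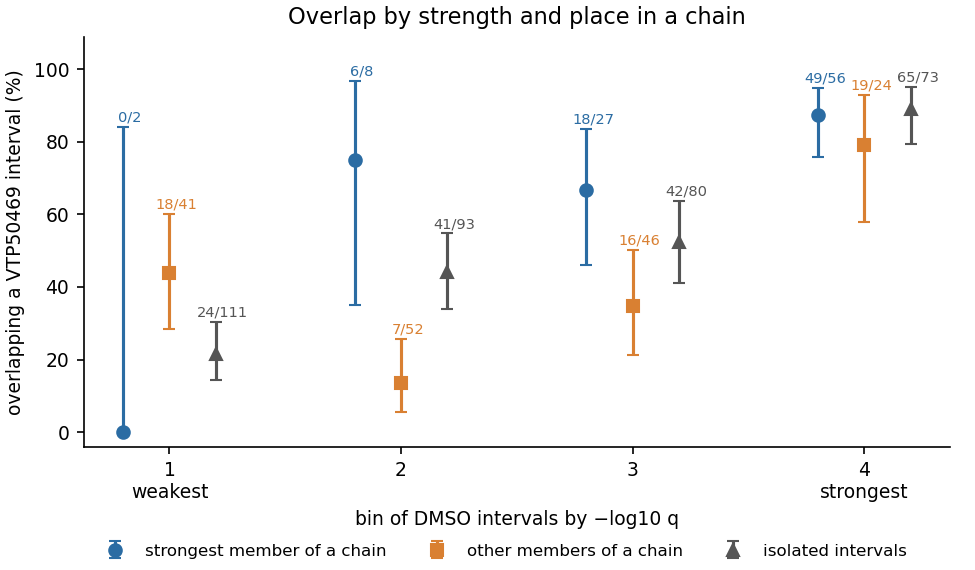
Share of DMSO intervals overlapping a VTP50469 interval (y axis, percent) in 4 equal bins of −log10 q (x axis), for the strongest member of each chain (blue circles), the other members (orange squares) and isolated intervals (grey triangles). Bars are exact 95% intervals with counts above them, and in the second bin 7 of 52 other members were shared against 41 of 93 isolated intervals.

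Neighbours in a chain could differ in whether they were shared. With 52.0% of all members shared, of 163 neighbouring pairs both were shared in 51, exactly 1 in 67 and neither in 45. Among the 53 pairs 2 kb or less apart the numbers were 14, 20 and 19, and among the 41 pairs more than 10 kb apart 17, 15 and 9. In chains of 3 or more, members at the ends were shared in 48.7% (37.2 to 60.3%) and inner members in 51.4% (39.2 to 63.6%), which did not differ beyond counting error. When intervals were extended by 1 kb on each side, 26 more members met a VTP50469 interval. In 26 of these 26 that interval lay on another member of the chain. With the same extension 0 isolated intervals were gained, but by the rule these have no chain-mate, so that contrast is partly by construction.

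Of the 7 chains with 5 or more members, 4 had 1 or 2 members shared and 3 had 4 or more. Zcchc7, a gene of nuclear RNA surveillance, held 6 members over 8722 bp, or 4.97% of the gene, on chromosome 4. Their DMSO folds in order along the chromosome were 17.4, 6.74, 13.8, 13.8, 14.7 and 9.59. The first, at 44772325 to 44773257, was shared, with a VTP50469 fold of 5.76 in its own list, and the other 5 were in the DMSO list alone.

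Tut4, the gene of a uridylyltransferase that marks let-7 precursors and other RNAs, held 6 members within 6528 bp, farther along chromosome 4. The DMSO folds in order were 8.54, 6.74, 12.7, 9.74, 8.54 and 9.14. The third and highest, at 108539444 to 108539855, was shared, with a VTP50469 fold of 10.1, and the remaining 5 were not.

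The chain with the most members lay in 9930021J03Rik, a gene named by a clone identifier, on chromosome 19. Its 8 members spanned 18453 bp with DMSO folds in order of 8.09, 6.98, 7.79, 8.00, 25.8, 10.5, 7.79 and 15.1. The members of fold 25.8 (29742315 to 29743195) and 15.1 (29751421 to 29752495) were shared, with VTP50469 folds of 15.0 and 6.37. The 6 weaker ones were in the DMSO list alone.

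Dennd1b, which encodes an exchange factor for the small GTPase RAB35, held 5 members over 21623 bp inside its span of 138963709 to 139176043 on chromosome 1. The DMSO folds in order were 9.89, 6.59, 7.64, 9.74 and 7.39. The shared member was the first, whose summit lay 58 bp from a listed start inside the gene and which holds the sequence printed above, with a VTP50469 fold of 8.13. The member of fold 9.74, with the same −log10 q of 14.6, was not shared.

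In the Hoxa chain 4 of 5 members were shared. Its members lay over 12906 bp of chromosome 6 from just upstream of Hoxa3 to Hoxa9, genes for homeobox factors of blood progenitors. DMSO folds in order were 28.8, 9.28, 8.84, 12.0 and 5.27, and the VTP50469 folds of those shared were 23.8, 10.0, 6.13 and 4.32. The member of fold 9.28 overlapped 2 VTP50469 intervals. The one of fold 10.0, at 52217329 to 52217579, did not cover its DMSO summit at 52216850. The member left out, of fold 12.0 inside Hoxa9, had the second highest fold of the 5, so strength alone did not order which members were shared here.

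The 2 remaining chains of 5 or more had low folds. At Mid1, the gene of a microtubule-associated ubiquitin ligase on chromosome X, 6 members over 15713 bp had folds of 3.47 to 5.78, and 4 were shared. One summit lay in the Mid1 span and 5 beyond it, the strongest 10786 bp away. The chromosome 9 row, from 3001199 to 3038076, had folds of 1.19 to 2.51 and held the widest member, of 16717 bp. Its nearest protein-coding gene was Alkbh8, 298669 bp from the strongest member. In all, 9 members in 3 chains had folds under 3, and the members of these 3 chains were shared in 10 of 10 cases.

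**Figure D4:**
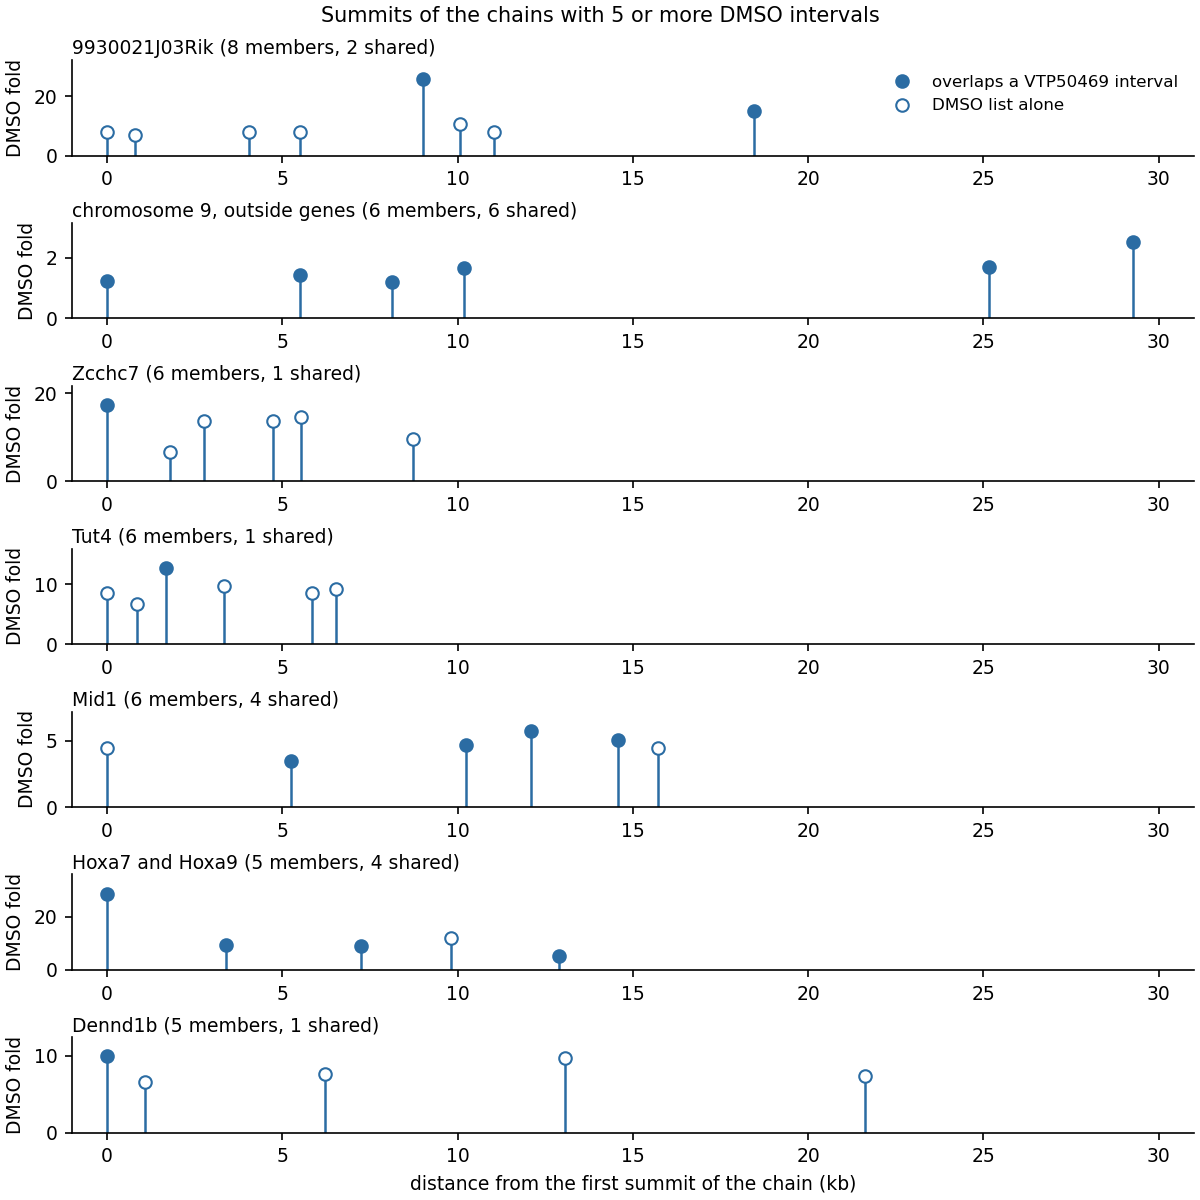
The 7 chains with 5 or more members, each drawn from its first summit (x axis, kb) with the fold of each member in the DMSO list (y axis, from 0 in each panel). Filled points overlap a VTP50469 interval and open points do not. In Zcchc7, Tut4 and Dennd1b 1 member each is filled, against 4 of 5 at Hoxa7 and Hoxa9.

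Hox genes were most of the listed genes that chains reached. Over all 21887 protein-coding genes, 103 had a chained summit in the span or within 10 kb, or 0.471%, and 325 had any DMSO summit there, or 1.48%. Of the listed Hoxa genes 6 of 11 had a chained summit, of Hoxb genes 4 of 10, of Hoxc genes 4 of 9 and of Hoxd genes 0 of 9. Neighbouring Hox genes share members, and these 14 genes rest on 3 chains. Each of the 14 had a VTP50469 summit in reach as well. Of all 103 genes with a chained summit 85 had one, or 82.5% (73.8 to 89.3%), so 14 genes on 3 chains do not stand apart. In the Hoxa, Hoxb and Hoxc lists every gene with a DMSO summit had a chained one, against 103 of 325 over all genes. That again rests on the same 3 chains, and no Hoxd gene had a DMSO summit.

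The Hoxb chain was a pair 10603 bp apart on chromosome 11. The member over a listed start of Hoxb8, a factor that holds myeloid progenitors undifferentiated, had a DMSO fold of 26.1 and a VTP50469 fold of 24.2. The second, inside the non-coding gene Hoxb5os, had folds of 21.3 and 20.5. Both were shared.

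The Hoxc chain had 4 members over 34743 bp of chromosome 15. The DMSO folds in order were 12.6 at the start of Gm29905, 20.2 and 7.19 in Hoxc5 and 14.7 in Hoxc4. The member of fold 12.6 also reached into Hoxc6, whose span begins at 102998226, inside that interval. All but the weakest were shared, with VTP50469 folds of 12.3, 20.5 and 10.1.

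In the list of 35 leukaemia and stem-cell genes, 4 had a chained summit, namely Pbx3, Runx2, Eya1 and Myb, and 5 more had isolated summits only. Pbx3, a partner of HOX proteins on DNA, held 2 chains, the 1 gene to do so. The first, of 3 members, had DMSO folds of 11.8, 9.28 and 7.49, and the second, of 4, had 6.14, 4.93, 4.85 and 28.3. The shared ones were those of 11.8 and 28.3, with VTP50469 folds of 7.17 and 16.1. In the first chain the strongest by −log10 q (43.2) was the unshared member of fold 9.28, which makes it 1 of the 4 chains shared in part without their strongest member, together with Gphn, Pik3r1 and Pura.

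Runx2, a runt-domain transcription factor gene that overlaps Supt3, held 3 members within 2747 bp of chromosome 17. Their DMSO folds were 26.5, 8.41 and 11.1, and the first was shared, with a VTP50469 fold of 7.77. Eya1, a coactivator and phosphatase gene, held 3 members over 36645 bp with DMSO folds of 5.38, 6.35 and 11, and none was shared. Myb, a transcription factor gene of blood progenitors, had a member of fold 6.89 that was not shared, chained to one of fold 12.0 beyond its span that was.

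The other lists had no chained summit: 0 of 20 genes of MLL and menin complexes, 0 of 28 genes of myeloid differentiation, 0 of 18 lymphoid genes, 0 of 14 erythroid and megakaryocyte genes and 0 of 26 nucleoporin genes. Against a background of 0.471%, a count of 0 in lists of this size is not a result about those genes.

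Whole chains mostly sat inside a gene. In 65 of 93 chains all summits fell in 1 protein-coding span, in 10 some did and in 18 none did. Of the members, 193 of 256 had the summit in a span, or 75.4% (69.6 to 80.5%), against 61.0% of all DMSO intervals and 50.7% (45.4 to 56.0%) of isolated ones, whose interval did not overlap. Exons and introns cannot be told apart from spans. The genes holding a whole chain were long, with a median of 150811 bp over 65 chains, against 122058 bp for the 176 genes with isolated summits alone and 17169 bp for all protein-coding genes. A gene has to be long enough to hold every summit of a chain, so this order is in part by construction. The chain took up a median of 5.90% of its gene, and 39 of the 65 took 10% or less.

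Members in gene spans were shared less often than members outside them. Of the 16 chains with no member shared, 16 held a summit in a gene span, and 15 lay wholly in 1 gene. Among chains inside 1 gene 15 of 65 had no member shared, or 23.1% (13.5 to 35.2%), and among the 18 outside genes 0, which allows up to 18.5% by the exact interval. These intervals overlap, so at this number of chains the difference is not separated from counting error. By member, 85 of 193 in gene spans were shared, or 44.0% (36.9 to 51.4%), and 48 of 63 outside them, or 76.2% (63.8 to 86.0%). The isolated intervals gave 40.9% (33.6 to 48.4%) and 55.7% (48.0 to 63.2%). Of the 63 members outside coding spans, 11 lay in a non-coding gene. These shares were not matched for strength. The members outside include the chromosome 9 row, shared in 6 of 6 at folds of 1.19 to 2.51. They also include a chromosome 5 pair with a fold under 3, shared in full, and the 4 shared members of the Mid1 chain. The Tmem267 pair, with folds under 3 and shared in full, lay inside a gene.

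The chains with no shared member were moderate in strength. Their strongest members had folds of 6.29 to 13.9 with a median of 9.96, against 13.1 in chains shared in part and 12.0 in chains shared in full. The 3 of them with 3 members lay in Eya1, Strn and Akap13. Strn encodes striatin, a scaffold of a phosphatase complex, and its members had DMSO folds of 10.2, 9.59 and 6.74. Akap13, an anchor of protein kinase A and exchange factor for RHOA, had members of 8.99, 7.34 and 6.43. Of the 13 pairs, 1 had only its stronger summit in Pgm2l1 and the other summit outside coding spans. The rest lay in Dennd1a, Tsc22d2, Magi3, Pcdh7, Foxp1, Fut8, Ssbp2, Adamts6, Dzip3, Qk, Rgs18 and Kifap3. Foxp1, a forkhead transcription factor gene of blood and other tissues, had folds of 8.12 and 9.74 at a distance of 33319 bp.

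Chains shared in full were not shorter than the rest, with a median span of 10603 bp against 9299 bp for those shared in part and 6567.5 bp for those without a shared member. Stam, the gene of an endosomal adaptor protein, held 3 members over 5714 bp with DMSO folds of 8.84, 15.3 and 10.5 and VTP50469 folds of 7.01, 12.6 and 5.41. Adk, the adenosine kinase gene, held 3 within 4401 bp, with DMSO folds of 13.9, 15.7 and 12.4 and VTP50469 folds of 8.93, 13.3 and 8.93. All members of Adk fell in the strongest bin.

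Among chains outside coding genes, 3 members lay on chromosome 1, the strongest 323944 bp from the nearest coding gene, the homeobox gene Hlx. They were shared, with DMSO folds of 22.2, 8.09 and 12.4 and VTP50469 folds of 21.9, 7.33 and 11. At the histone cluster on chromosome 13 another 3 had DMSO folds of 13.2, 9.13 and 9.74 and VTP50469 folds of 13.5, 9.64 and 9.58. The summit of the strongest lay 413 bp outside the histone gene H4c11, though its interval overlapped that gene. A pair on chromosome 5, nearest to Lcorl at 629348 bp, had a shared member of fold 21.7 and an unshared one of 6.89.

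Other strong pairs and rows were shared in part or in full. The Strbp pair, 8605 bp apart, joined the member of fold 61.4, shared with a VTP50469 fold of 46.6, to one of 9.14 that was not shared. Strbp encodes an RNA-binding protein of spermatids. The Trdmt1 pair, in a tRNA methyltransferase gene, had folds of 39.9 and 8.18 and was shared in full. Rasal2, a RAS GTPase-activating protein gene, had folds of 14.5, 14.6 and 7.04, of which the first and second were shared. In Umad1 the folds in order were 21.7, 9.14, 20.8 and 8.58 over 50654 bp, and the first and second were shared, so that a member of 20.8 was absent from the VTP50469 list while one of 9.14 was found again. The pair that reaches from beside Hibadh to Tax1bp1, an autophagy receptor gene, had folds of 28.0 and 11.8, 43790 bp apart, and both were shared.

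**Figure D5:**
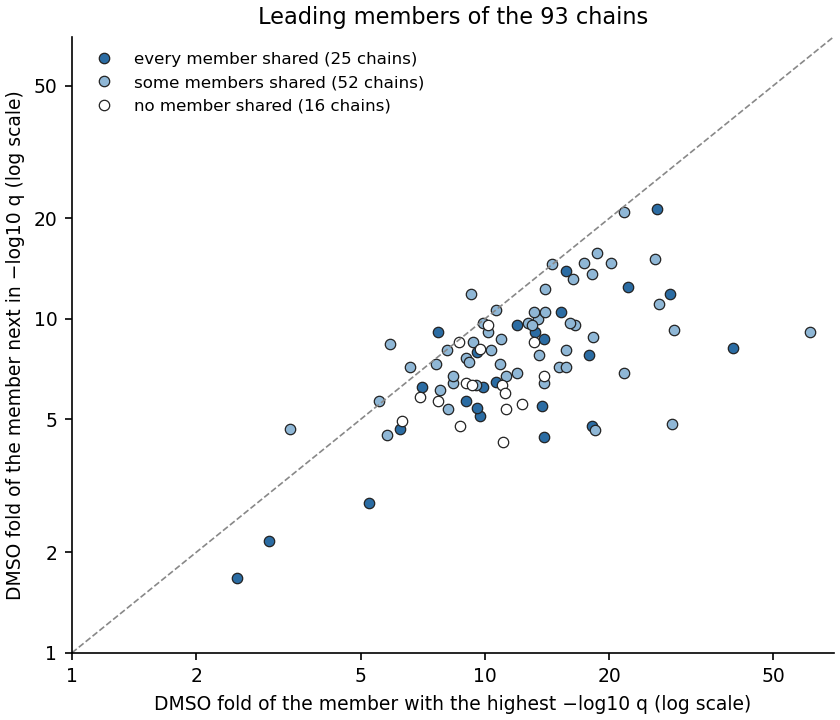
For each of the 93 chains, the DMSO fold of the member with the highest −log10 q (x axis, log scale) and of the next one (y axis, log scale), with the dashed line at equal folds. The 16 chains with no shared member (white) have leading folds of 6.29 to 13.9.

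Several chains of regulators were described only after their values were seen. Nr4a2, an orphan nuclear receptor gene, had DMSO folds of 5.62, 18.3 and 8.84, and Mbnl1, a splicing regulator gene, 13.5, 5.55 and 10.0, and in each the highest was the shared one. Among the genes of cohesin and its loading, Stag1 had folds of 5.90, 7.34, 8.39 and 8.24, of which the first was shared, and Nipbl had 7.63, 8.99 and 5.23, of which the second was. Dach1, a transcriptional cofactor gene, had 5.08, 6.14, 15.2 and 7.19, and Phip, a chromatin reader gene, had 6.29, 7.44, 9.59 and 13.0, each with its highest member shared.

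Of the chains examined for miRNA genes within 10 kb, which left out 3 chains, 5 had 6 listed ones in all. How often isolated intervals lie so near a miRNA gene was not counted. Mature forms are printed for the 4 genes at the Dleu2, Hoxa and Hoxc chains, to show which miRNAs share these loci. Capitals mark the seed, bases 2 to 8, and the sequences are from RefSeq.
mmu-miR-15a-5p: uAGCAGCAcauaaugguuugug
mmu-miR-16-5p: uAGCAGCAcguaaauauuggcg
mmu-miR-196b-5p: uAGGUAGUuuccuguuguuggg
mmu-miR-615-3p: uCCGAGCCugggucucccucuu
The miR-15a and miR-16 forms share the seed AGCAGCA. Their genes, Mir15a and Mir16-1, lie in the Dleu2 transcription unit, 4654 and 4793 bp from the nearest summit of the Dleu2 chain. That chain had 4 members over 9473 bp of chromosome 14 with DMSO folds of 6.82, 13.6, 5.31 and 18.2, of which those of 13.6 and 18.2 were shared, with VTP50469 folds of 9.35 and 21.1. The printed form of Mir196b lay 3770 bp beyond the last Hoxa summit, and that of Mir615 347 bp from the Hoxc5 summit of fold 20.2. The other 2 genes were Mir5128, 4115 bp from the Strbp chain, and Mir101c, 2118 bp from the chromosome 9 row.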

How the data were processed

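The data are peak lists of biotinylated NUP98-HOXD13 from 1 DMSO and 1 VTP50469 library of a mouse leukaemia line. Per the labels, the libraries were read from both ends. Per the submitters' processing notes the build was mm10, STAR 2.7.5a and Picard 2.9.4 were used with reads from bcl2fastq 2.20.0.422, and SAMtools 1.95, bedtools and MACS2 are also named. The control, threshold and settings were not given in the sources used here. The authors deposited 1 list per library, with a fold enrichment (a ratio), a −log10 p, a −log10 q, the summit and a score per interval. The deposited score restates the −log10 q and was not used. Fold and −log10 q rank or describe intervals within their own list. Intervals reach down to a −log10 q of 2.10 (DMSO) and 2.02 (VTP50469). The lists hold no read totals, so depth is unknown.

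Intervals on chromosomes 1 to 19, X and Y were chained by summit and overlapped in Python 3.11.15 with scipy 1.17.1, matplotlib 3.10.9, pandas 2.3.3 and numpy 2.4.6. The chaining and overlap were tested on simulated lists. Median intervals are order-statistic 95% intervals. Bins by −log10 q split ties by position, since 471 of 613 intervals share their −log10 q with another. Gene spans, starts and sequences came from RefSeq tables of GRCm38.p6, the primary assembly of mm10. The spans have no exons, and the list of starts is partial. The members and the 10 gene lists (180 genes, 180 of them in the table) were chosen with earlier results of these data known. Chains named were those of 5 or more members, the 10 strongest of 2 to 4 by −log10 q, and of chains of 3 or more the 5 strongest shared in full and the strongest without a shared member (3 exist). To these were added listed genes with a chained summit, and all other genes were named after their values were seen. No genome sequence was used here, so members away from gene starts and miRNAs are shown without their bases. Alternatives covered the gap, the threshold, the overlap rule, the list length, intervals of fold under 3 and the distance to genes.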

Additional observations from a re-analysis of the deposited data

Results flagged for a closer look

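Outside chromosomes 1 to 19, X and Y there were 42 DMSO intervals, which are signal that the chains above do not use. By the same rule 36 of them fell in 10 chains, with a median fold of 2.25 in the authors' DMSO list. Of these 36, 32 overlapped a VTP50469 interval, or 88.9% (73.9 to 96.9%).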

How the results depend on the processing

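Of 120 values recomputed under 14 settings, 110 stayed within counting error or within 1.5 times the value given, and 10 moved. Strength taken as fold, and the bins by fold, within gene spans and without intervals of fold under 3, were chosen after seeing the data. The strongest members were shared more often than the others under 10 of 10 settings, and the share of members exceeded that of isolated intervals under 5 of 10, so that order is not settled. With a gap of 10 kb there were 25 chains of 3 or more and a median spacing of 2486 bp, both by construction. With 50 percent reciprocal overlap asked for, 67.7% of strongest members were shared, and the cause was not tested. Extending intervals by 1 kb gave 62.1% of all members and 52.1% of the others, as VTP50469 intervals on chain-mates came within reach. At equal list length 62.8% of isolated intervals were shared, with fewer weak DMSO intervals kept. With 10 kb on each side of genes 83.2% of members counted as in a gene. Gene spans alone gave 9 listed genes with a chained summit, and 50 kb on each side gave 169 genes and 28 listed ones, by construction. No paired analysis was possible because there was 1 library per treatment. Without read totals the precision of single weak intervals is unknown, and an interval missing from the VTP50469 list may lie just under its threshold.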
